A study of Rattus norvegicus with 8 samples.

Results

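Cholesterol synthesis, uptake and SREBP control were examined through 36 genes, each found by its symbol among the 13613 genes listed for these libraries. They comprise 18 synthesis enzymes, 1 enzyme of the branch to longer isoprenoids, 7 genes of the SREBP system, 9 genes that move, export or store cholesterol, and Lpin1. The rule that lists them names roles in the pathway and uses no measured value, but it was drawn up with earlier results of these data known. All 36 passed the filter on low reads.

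The libraries came from rat nucleus pulposus, the gelatinous core of the intervertebral disc, as primary cells that had grown out of explants and been expanded in medium with fetal bovine serum. In 4 control libraries the cells carried the vector PLKO1, and in 4 knockdown libraries they carried a short hairpin RNA against TonEBP, a transcription factor that answers to tonicity and is the product of Nfat5. Both groups spent the last 8 h before RNA isolation in medium made hypertonic with 110 mM NaCl, so every level below is one under added salt, and no culture without it is analysed here. Sets 1 to 4 each gave 1 library to each group. The labels do not say what a Set is, whether cells of several rats were pooled, or the rats' strain, age and sex, so p-values measure the spread between these samples, which may be technical.

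Animal cells build cholesterol from acetyl-CoA. Early enzymes carry it through mevalonate to farnesyl diphosphate, and late enzymes join and fold farnesyl units into lanosterol and trim that into cholesterol. The supply is set by SREBP transcription factors: when membranes hold little sterol, the escort SCAP carries SREBP to the Golgi, where a pair of proteases releases the active factor, and when sterol is plentiful the INSIG anchors hold SCAP back. SREBP acts with the CCAAT-binding factor NF-Y on the promoters of the enzymes, while the oxysterol receptors of the LXR family switch on export of cholesterol.

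In the knockdown cells 3 synthesis enzymes were lower with no overlap between the groups, as were 3.44% of 12383 genes tested: Pmvk at 58.3%, Hsd17b7 at 56.1% and Ebp at 51.6% of their control means. The estimated change of each of the 18 synthesis enzymes lay below 0, with a median of -0.31 on the log2 scale, while the genes that encode SREBPs and their handling machinery lay on both sides of 0, with a median of 0.07. Of the 36 genes only the lysosomal exporter gene Npc1 and the efflux transporter gene Abca1 were higher in every Set, as were 17.0% of all genes tested. Npc1 was not called in the authors' deposited table, in limma or in DESeq2. None of the 36 genes passed limma's test over all genes, in which 0 genes were higher and 1 was lower (0.00% and 0.00808% of 12383), and each call below is from the authors' deposited table or from DESeq2 with the Set as a block. At an unadjusted limma p under 0.05, 1 member was higher and 3 were lower, against 4.36% and 5.14% of all genes. DESeq2 without the block called 0 members, against 0.597% of 11398 genes higher and 0.833% lower. In RNA from whole cultures, fewer cells of a type and less RNA per cell cannot be told apart.

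**Figure D1:**
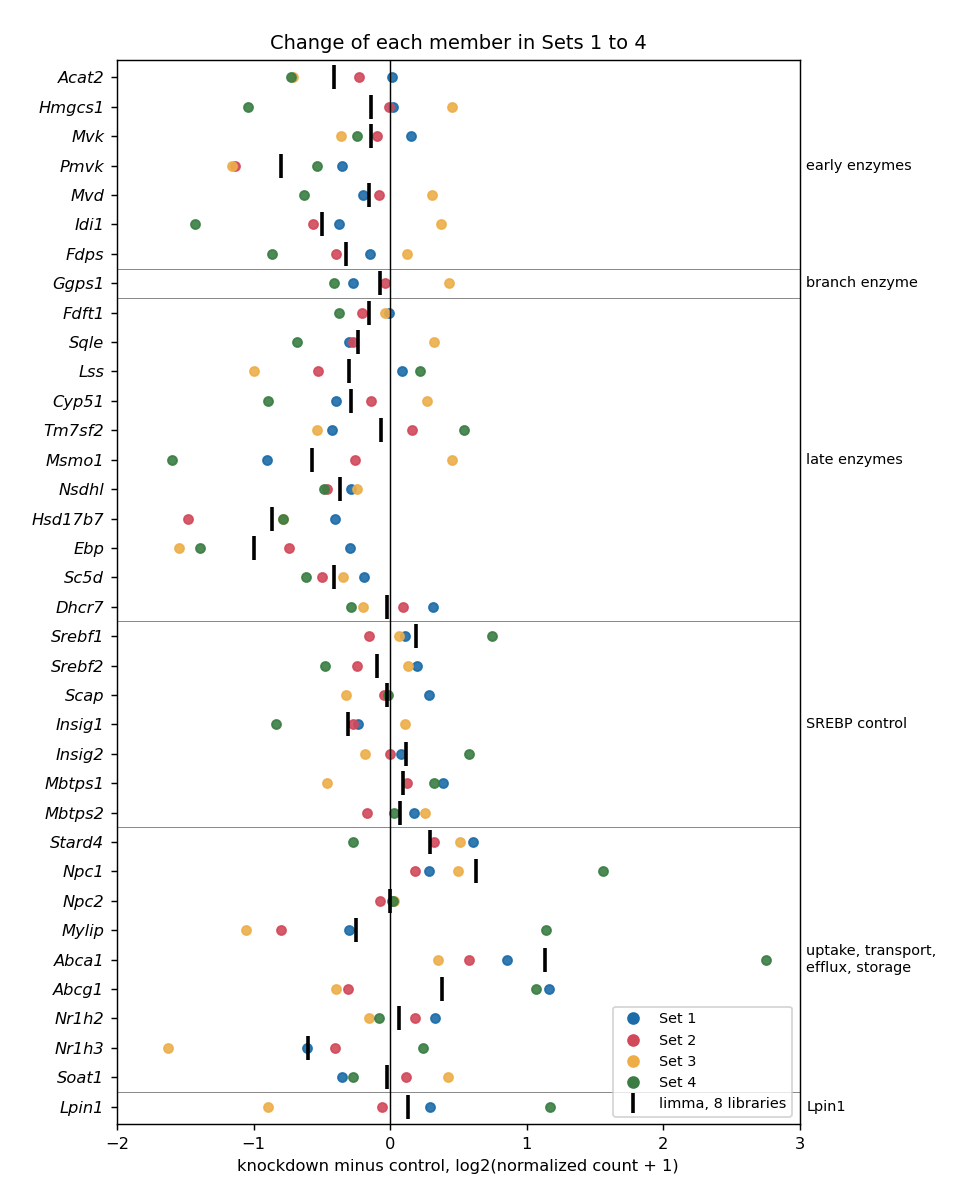
Each row is a gene and each coloured point is 1 Set; the horizontal axis is the knockdown minus the control library on the log2(normalized count + 1) scale, and the black bar is the limma estimate over 8 libraries. All 18 bars of the early and late enzymes lie left of 0, while the points of Npc1 and Abca1 all lie right of it.

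Nfat5 (ENSRNOG00000011879), which the hairpin targets, measured 1682, 2332, 1677 and 942 normalized counts in control libraries 1 to 4 and 1094, 872, 459 and 414 in knockdown libraries 1 to 4. A normalized count is a read count divided by the size factor of its library. Every Set was lower in the knockdown, which held 65.0%, 37.4%, 27.4% and 43.9% of its control in Sets 1 to 4, but the groups overlapped, since knockdown library 1 was above control library 4. The log2 fold change was -1.27 (standard error 0.379, limma adjusted p = 0.378, or 0.0591 with Sets blocked). DESeq2 with the Set as a block gave an adjusted p of 9.66e-06. The libraries held between 9567488 and 15782202 reads on the listed genes. Of the nucleus pulposus markers 8 of 12 were listed, and their sum, in reads scaled to the library's total on the listed genes (CPM), followed the Set, from 929 CPM in control and 1281 CPM in knockdown library 1 to 30.4 and 54.4 CPM in libraries 4, with the cartilage collagen gene Col2a1 near 0 at means of 3.16 and 3.15 normalized counts. Most of that sum in Set 1 came from Car3, a carbonic anhydrase gene, at 11125 normalized counts in control library 1 and 186 in control library 4. Sox9, the cartilage transcription factor, lay between 0 and 29.2 normalized counts, so these 2 classical markers were at or near 0 in these cultures. Other listed markers did not follow Car3. Krt8 was highest in Set 3, at 865 and 725 normalized counts in control and knockdown. Cd24 was highest in Set 2, at 498 and 379. Krt18, Car12 and Foxa1 reached at most 24.7, 13.1 and 26.1 in any library. The markers T, Krt19, Acan and Shh are not analysed here.

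The promoters of 31 of the 36 genes could be read from RefSeq's table for the build GRCr8, and 5 are shown. They include Hsd17b7 and Ebp, which were called lower, and Npc1 and Abca1, which were higher in every Set. Hmgcs1, an early enzyme and textbook target of SREBP that was not called, is shown beside them. Only bases before the annotated start are printed, 5′ to 3′ along the gene. Capitals mark the NF-Y box CCAAT, or ATTGG where it lies on the other strand, and TGGAAA, the core of the tonicity element that TonEBP reads, or TTTCCA on the other strand. No printed matches overlap. Hsd17b7 is at chr13:84722755-84722954 on the minus strand, Ebp at chrX:16971312-16971461 on the plus strand, Hmgcs1 at chr2:53382104-53382303 on the plus strand, Npc1 at chr18:3699801-3699950 on the minus strand and Abca1 at chr5:72596474-72596623 on the minus strand.
Hsd17b7: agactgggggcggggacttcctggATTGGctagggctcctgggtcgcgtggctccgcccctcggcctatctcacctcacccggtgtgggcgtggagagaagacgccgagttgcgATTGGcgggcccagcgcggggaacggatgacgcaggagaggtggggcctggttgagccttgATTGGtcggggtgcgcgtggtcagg
Ebp: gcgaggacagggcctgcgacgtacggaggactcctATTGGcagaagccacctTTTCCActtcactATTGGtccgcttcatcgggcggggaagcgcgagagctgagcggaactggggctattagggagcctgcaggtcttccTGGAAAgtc
Hmgcs1: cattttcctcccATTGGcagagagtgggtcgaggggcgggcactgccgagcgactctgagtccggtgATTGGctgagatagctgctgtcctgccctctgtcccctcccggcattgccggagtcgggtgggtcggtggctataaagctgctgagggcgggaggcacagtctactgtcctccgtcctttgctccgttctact
Npc1: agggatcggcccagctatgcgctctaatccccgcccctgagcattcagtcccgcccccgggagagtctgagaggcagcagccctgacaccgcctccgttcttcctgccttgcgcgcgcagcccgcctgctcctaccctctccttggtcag
Abca1: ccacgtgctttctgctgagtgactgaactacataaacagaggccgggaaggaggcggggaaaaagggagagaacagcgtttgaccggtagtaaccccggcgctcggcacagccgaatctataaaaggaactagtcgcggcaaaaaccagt

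Hsd17b7 holds 3 boxes in the orientation ATTGG, Ebp and Hmgcs1 hold 2 each, and the stretches of Npc1 and Abca1 hold none. Ebp is the one with the tonicity core, once on each strand. Over the whole window of 300 bases, 250 before and 50 after the start and on both strands, CCAAT occurred in 12 of the 15 synthesis enzyme promoters read, in 4 of 7 promoters of the SREBP system and in 3 of 7 of the transport genes. It occurred in 37.9% of 8833 promoters of genes tested here. TGGAAA occurred in 2 of the 15 enzyme promoters, those of Ebp and Tm7sf2, which is 13.3%, against 16.0% of the promoters of genes tested here. The sterol element, searched as TCACNCCAC, occurred in 0 of the 31 promoters and in 1.20% of those of genes tested here, which says only that these letters are not in these windows. The promoters of Abcg1, Fdft1, Pmvk, Sqle and Stard4 are not shown.

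Among the 7 early enzymes Pmvk stood apart. Pmvk (ENSRNOG00000020696) encodes phosphomevalonate kinase, which adds the second phosphate to mevalonate. It measured 202, 210, 240 and 198 normalized counts in control libraries 1 to 4 and 157, 94.9, 107 and 136 in knockdown libraries 1 to 4. The groups did not overlap, and Sets 2 and 3 showed the largest falls, to 45.2% and 44.7% of their controls. Means were 212 ± 19.2 in control cells and 124 ± 28.2 in knockdown cells (SD, n = 4), with a log2 change of -0.80 and a standard error of 0.210. The limma adjusted p was 0.365, or 0.0991 with Sets blocked. An exact permutation test gave p = 0.0286, the smallest that 4 against 4 allows. Groups that do not overlap always give this value, so it adds nothing to the lack of overlap. The authors' deposited table calls Pmvk lower (log2 -0.70, adjusted p = 0.0203). DESeq2 with the Set as a block, run on the same reads, gave an adjusted p of 0.0210 and is no separate support.

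The authors' deposited table calls 3 of the 36 genes lower and 1 higher at an adjusted p under 0.05, against 5.22% of 12251 genes lower and 4.09% higher. DESeq2 with the Set as a block called the same 4 genes, against 5.45% of 12029 genes lower and 4.31% higher. For these 4 genes its adjusted p-values were close to the deposited ones. Both come from DESeq2 on the same reads, so the shared calls are not 2 separate results. Groups did not overlap, with the knockdown below, for 3 members against 3.44% of all genes tested, and with the knockdown above for 1 against 2.90%. All of the lower calls were synthesis enzymes, 3 of 18. Over the 36 genes as a whole, these counts are near the background and are no result about the genes as a set.

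The other early enzymes had limma log2 fold changes between -0.50 and -0.14. Hmgcs1 (ENSRNOG00000016552), the cytosolic synthase that makes HMG-CoA, measured 703, 626, 697 and 1446.5 normalized counts in the control and 714, 623, 958 and 704 in knockdown libraries 1 to 4. Control library 4 was more than every other library, and the remaining 7 overlapped. The log2 fold change was -0.14 (standard error 0.278, limma adjusted p = 0.932), and without control library 4 it was 0.13. Fdps (ENSRNOG00000043377), which makes farnesyl diphosphate, the last shared step before sterols and isoprenoids part, measured 1404, 1588, 1178 and 2045 in control and 1268, 1208, 1287 and 1123 in knockdown libraries. The knockdown libraries of Fdps lay close together, at 1221 ± 73.8 (SD, n = 4), and overlapped the control range at its lower end; the log2 change of -0.32 was -0.18 without control library 4.

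Idi1, the isomerase of isopentenyl diphosphate, measured 264, 155, 97.4 and 198 normalized counts in the control and 204, 105, 127 and 72.9 in knockdown libraries 1 to 4. It had a log2 change of -0.50 and was lower in Sets 1, 2 and 4 and higher in Set 3. Acat2, which condenses acetyl-CoA at the entry of the pathway, was level in Set 1 (101% of control) and at 60.8% and 60.3% in Sets 3 and 4. Mvk, the kinase before Pmvk, and Mvd, the decarboxylase after it, had log2 changes of -0.14 and -0.15, and for both the groups overlapped. Ggps1, which takes farnesyl diphosphate toward protein prenylation, measured 822 ± 142 in control cells and 780 ± 107 in knockdown cells (SD, n = 4).

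Of the 11 late enzymes, Hsd17b7 and Ebp were called. Hsd17b7 (ENSRNOG00000002826) encodes a 3-ketosteroid reductase that completes removal of the methyl groups at the fourth carbon of the sterol ring. It measured 121, 140, 139 and 176 normalized counts in the control and 91.1, 49.5, 80.3 and 102 in knockdown libraries 1 to 4. All 4 knockdown libraries lay below all control libraries, and knockdown library 2 was the lowest. Means were 144 ± 23.0 and 80.7 ± 22.6 (SD, n = 4), with a log2 change of -0.86 and a standard error of 0.271. Its limma adjusted p was 0.392, or 0.102 with Sets blocked, and the exact permutation p was 0.0286, which the lack of overlap fixes. The authors' deposited table gives log2 -0.73 and an adjusted p of 0.0243, and DESeq2 with the block an adjusted p of 0.0252.

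Ebp (ENSRNOG00000004903) encodes the sterol isomerase, known as emopamil binding protein, that shifts the ring double bond of the late intermediates. Its normalized counts were 134, 121, 149 and 165 in control and 109, 72.2, 50.3 and 62.2 in knockdown libraries 1 to 4. The groups did not overlap, and the fall was to 81.5% in Set 1, 59.7% in Set 2, 33.7% in Set 3 and 37.6% in Set 4. Means were 142 ± 19.1 and 73.5 ± 25.5 (SD, n = 4), a log2 change of -0.99 and a standard error of 0.273. The limma adjusted p was 0.370, or 0.102 with Sets blocked, and the exact permutation p was 0.0286, again fixed by the lack of overlap. The authors' deposited table gives log2 -0.81 and an adjusted p of 0.0216, and DESeq2 with the block 0.0219.

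Pmvk, Hsd17b7 and Ebp had between 52 and 230 reads in a library. Leaving out both libraries of a Set kept each of them below 0 in DESeq2 with the block, with log2 fold changes from -0.95 to -0.68 for Pmvk, -1.02 to -0.66 for Hsd17b7 and -1.24 to -0.81 for Ebp. The call of Pmvk was lost without Set 2, 3 or 4 (adjusted p = 0.363, 0.159 and 0.0791), that of Ebp without the same Sets (0.173, 0.160 and 0.213), and that of Hsd17b7 without any of the 4 Sets (0.0575 to 0.417).

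**Figure D2:**
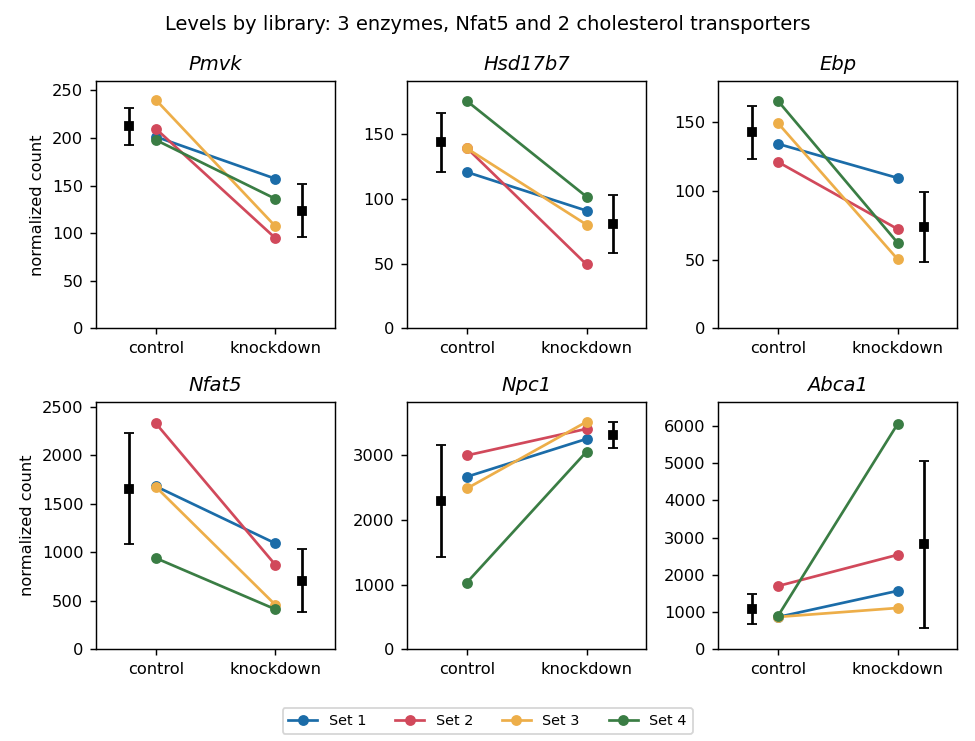
Normalized counts by library for 6 genes, each line joining the control and knockdown library of 1 Set, with black squares and bars for the mean and SD of 4 libraries. Every line falls for Pmvk, Hsd17b7, Ebp and Nfat5 and climbs for Npc1 and Abca1, and the steepest climb of Npc1 and of Abca1 is that of Set 4.

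The enzymes that act just before Hsd17b7 and just after Ebp were lower in all 4 Sets too, but neither passed the test. Nsdhl (ENSRNOG00000017099), the decarboxylating dehydrogenase that works just before Hsd17b7, measured 271, 279, 302 and 417 normalized counts in the control and 222, 203, 255 and 298 in the knockdown libraries. Only knockdown library 4 reached into the control range of Nsdhl, and its adjusted p in the authors' deposited table was 0.167. Sc5d (ENSRNOG00000008305), the desaturase that follows Ebp, measured 406, 628, 435 and 587 in control and 356, 445, 343 and 383 in knockdown libraries. Knockdown library 2 alone reached into the control range of Sc5d. The adjusted p of Sc5d in the authors' deposited table was 0.0999. Being lower in all 4 Sets was shared by 6 of the 18 enzymes, Pmvk, Fdft1, Nsdhl, Hsd17b7, Ebp and Sc5d. That is 5 of 11 late and 1 of 7 early ones. Of these, Fdft1 was close to level in Sets 1 and 3, at 99.7% and 97.5% of control. Among all genes tested 16.2% were lower in all 4 Sets, and over all members it is 6 of 36, near that share.

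The remaining late enzymes varied between libraries by more than they differed between groups. Sqle (ENSRNOG00000009550), the squalene epoxidase, measured 469, 453, 419 and 684 normalized counts in the control and 381, 376, 523 and 427 in knockdown libraries 1 to 4, with a log2 change of -0.23 (standard error 0.198, limma adjusted p = 0.782) that was -0.079 without control library 4. The groups overlapped, and the lowest 2 libraries were knockdown libraries 1 and 2. Cyp51 (ENSRNOG00000007234), the lanosterol demethylase, measured 1419, 1014, 736 and 995 in control and 1078, 922, 890 and 536 in knockdown libraries, a log2 change of -0.29 (standard error 0.265, limma adjusted p = 0.806) that was -0.078 without knockdown library 4. Both groups of Cyp51 were highest in Set 1, and knockdown library 4 was the lowest of all.

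Msmo1, the methyl sterol oxidase that acts after Cyp51, ran from 1054 to 2973 normalized counts in the control and from 687 to 1594 in knockdown libraries, with a log2 change of -0.57 (limma adjusted p = 0.677). Fdft1, which joins farnesyl units into squalene, had a log2 change of -0.15, and Lss, which closes squalene epoxide into lanosterol, of -0.30, with Lss at 50.1% of control in Set 3 and 117% in Set 4. Tm7sf2, a sterol reductase, had few reads, 25 to 70 a library, and means of 45.5 ± 12.6 and 45.6 ± 21.3 normalized counts (SD, n = 4). Dhcr7 (ENSRNOG00000020776), the reductase at the end of the pathway, measured 132, 158, 160 and 129 in control and 165, 169, 139 and 105 in knockdown libraries, with a log2 change of -0.02 (standard error 0.215, limma adjusted p = 0.993). Its sign turned under several alternatives, to 0.12 without knockdown library 4.

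The count of 18 of 18 enzymes below 0 compares with 49.9% of all genes tested. Without the 3 called enzymes the other 15 had a median of -0.29 and ran from -0.57 to -0.02. Medians were -0.32 for the early enzymes, or -0.18 without control library 4, and -0.30 for the late enzymes, and the median of all genes tested was 0.0004. The count was between 15 and 18 with any 1 library left out, lowest without control library 4, which held the highest value of the 8 libraries for 8 of the 18 enzymes. Enzymes share a pathway and were sequenced in the same libraries, so their agreement in sign is not that of 18 independent observations.

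By Set, the median change of the early enzymes was -0.15, -0.23, 0.13 and -0.72 in Sets 1 to 4, and that of the late enzymes -0.29, -0.27, -0.24 and -0.62. In Set 3 both stages were mixed: 4 of 7 early and 3 of 11 late enzymes lay above 0. There, 7 enzymes were higher in the knockdown library: Hmgcs1, Mvd, Idi1, Fdps, Sqle, Cyp51 and Msmo1, by log2 0.13 to 0.46. The same 7 were lower in Set 4, by -1.60 to -0.63, and 7 of 7 were lower in Set 2 and 6 of 7 in Set 1. The other 11 enzymes, which include Pmvk, Hsd17b7 and Ebp, had a median of -0.54 in Set 3 and -0.48 in Set 4. This division was seen in the data and was not tested. It was made by the sign in Set 3, so the direction of both groups in Set 3 is fixed by it. Set 3 was the Set in which the knockdown library kept the smallest share of Nfat5.

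**Figure D3:**
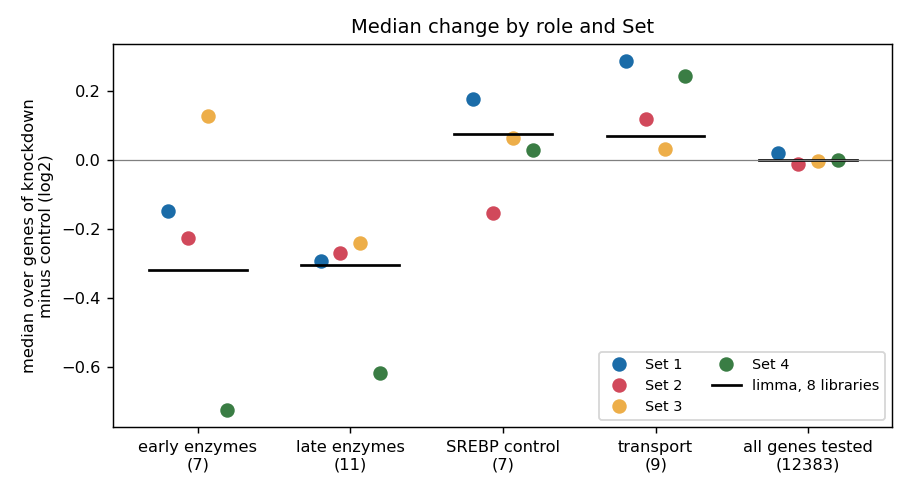
Points give the median over the genes of a role of the knockdown minus control difference (log2) in each Set, and black lines the median of the limma estimates over 8 libraries, with the number of genes in brackets. Early and late enzymes lie lowest in Set 4, at -0.72 and -0.62, and the median of the early enzymes lies above 0 in Set 3, where 3 of the 7 lie below.

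The genes of the SREBP system themselves showed no common direction, 4 above and 3 below 0. Srebf2 (ENSRNOG00000007400), the factor that chiefly serves cholesterol genes, measured 641, 1076, 1019 and 1628 normalized counts in the control and 737, 912, 1117 and 1171 in knockdown libraries 1 to 4. The knockdown library was higher in Sets 1 and 3 and lower in Sets 2 and 4. Its log2 fold change was -0.10 (standard error 0.282, limma adjusted p = 0.960), and without control library 4 it was 0.12. Srebf1 (ENSRNOG00000003463), which chiefly serves fatty acid genes, measured 480, 1018, 1236 and 955 in control and 518, 916, 1293 and 1601 in knockdown libraries, a log2 change of 0.19 (standard error 0.399, limma adjusted p = 0.937). The control and knockdown values of Srebf1 in Sets 1 to 3 were close, with the knockdown at 108%, 90.0% and 105% of control, while Set 4 was at 168%, and without knockdown library 4 the fold change was -0.04.

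Scap (ENSRNOG00000020853), the sterol-sensing escort, measured 1598, 1734, 1792 and 1939 normalized counts in the control and 1946, 1680, 1431 and 1923 in knockdown libraries, with a log2 change of -0.02 and a standard error of 0.144. The groups overlapped throughout. Insig1 (ENSRNOG00000006859), an anchor that is itself a target of SREBP, measured 449, 385, 270 and 555 in control and 383, 320, 292 and 310 in knockdown libraries, a log2 change of -0.31 (standard error 0.230, limma adjusted p = 0.742) that was -0.15 without control library 4. Like the 7 enzymes named above, Insig1 was higher in the knockdown library of Set 3 and furthest below its control in Set 4, at 55.9%. Insig2 (ENSRNOG00000002478), the other anchor, measured 686, 764, 860 and 451 in control and 727, 764, 758 and 675 in knockdown libraries, with a log2 change of 0.12 (standard error 0.204) that was -0.07 without control library 4.

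The proteases that release SREBP had log2 changes of 0.09 for Mbtps1 (2759 ± 714 and 2980 ± 1016 normalized counts in the control and knockdown cells) and 0.07 for Mbtps2 (75.6 ± 24.4 and 78.0 ± 16.7; SD, n = 4). The latter had 53 to 115 reads a library. No gene of the SREBP system was called in limma, in DESeq2 with or without the block, or in the authors' deposited table.

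**Figure D4:**
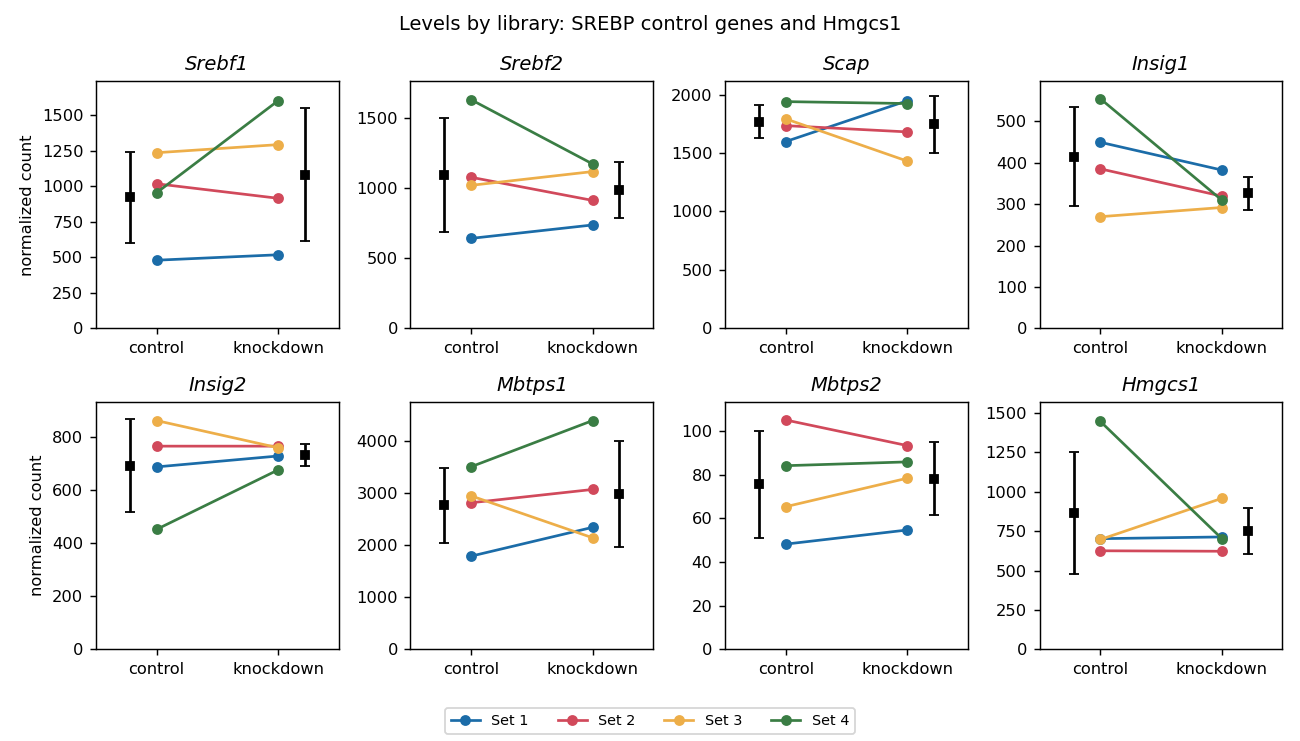
Normalized counts by library for the 7 genes of the SREBP system and the target Hmgcs1, drawn as lines between the control and knockdown library of each Set, with black squares and bars for the mean and SD of 4 libraries. Lines of Srebf1, Srebf2 and Scap run in both directions, and control library 4 of Hmgcs1 stands at 1446.5.

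Of the 9 genes of cholesterol transport, storage and its LXR control, 6 lay above and 3 below 0, where 49.9% of all genes tested lay below. One of the 6, Npc2, was level, and its sign turned in edgeR. Npc1 (ENSRNOG00000012016), the membrane protein that moves cholesterol out of lysosomes, measured 2669, 2999, 2488 and 1034 normalized counts in the control and 3254, 3410, 3518 and 3057 in knockdown libraries 1 to 4. The lowest knockdown library lay just above the highest control library, and every Set was higher, Set 4 most. Means were 2297 ± 868 and 3309 ± 200.4 (SD, n = 4), a log2 change of 0.63 and a standard error of 0.313. The exact permutation p was 0.0286, which the lack of overlap fixes. Npc1 was not called: its adjusted p was 0.564 in limma, or 0.178 with Sets blocked. It was 0.104 in DESeq2 with the Set as a block and 0.119 in the authors' deposited table. Without control library 4 the log2 fold change was 0.29. Npc2, the soluble partner of Npc1 in the lysosome, was close to level in every Set, with log2 differences between -0.07 and 0.03, at 5120 ± 789 and 5132 ± 887 normalized counts (SD, n = 4).

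Abca1 (ENSRNOG00000018126), which loads cholesterol onto lipoprotein particles outside the cell and is switched on by LXR, measured 869, 1701, 872 and 897 normalized counts in the control and 1571, 2539, 1112 and 6049 in knockdown libraries 1 to 4. It was higher in all 4 Sets, at 181%, 149%, 127% and 675% of control, but the groups overlapped because control library 2 lay above knockdown libraries 1 and 3. The log2 fold change was 1.13 (standard error 0.494, limma adjusted p = 0.520, or 0.152 with Sets blocked), and the exact permutation p was 0.0857. The authors' deposited table calls it higher (log2 0.85, adjusted p = 0.0322), as did DESeq2 with the block (0.0345). Knockdown library 4 carried much of this: without it the log2 fold change was 0.66, and in DESeq2 with the block and without both libraries of Set 4 it was 0.60 (adjusted p = 0.0671). The call was also lost without any other Set (0.0608 to 0.202). Being higher in all 4 Sets was shared by Npc1 and Abca1, 2 of 36 members, and by 17.0% of all genes tested.

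The related exporter Abcg1 (ENSRNOG00000001158) measured 42.9, 66.4, 29.6 and 80.2 normalized counts in the control and 97.7, 53.5, 22.2 and 169 in knockdown libraries 1 to 4. It was higher in Sets 1 and 4 and lower in Sets 2 and 3, and the log2 change of 0.38 (standard error 0.611) was -0.06 without knockdown library 4. The LXR genes had log2 changes of 0.07 for Nr1h2 (1362 ± 197 and 1418 ± 54.4 normalized counts) and -0.60 for Nr1h3 (362 ± 179 and 236 ± 109; SD, n = 4), where control library 3 stood at 622. Neither was called.

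Stard4 (ENSRNOG00000020468), a soluble carrier of cholesterol between membranes and a SREBP target, measured 153, 171, 128 and 132 normalized counts in the control and 234, 215, 184 and 109 in knockdown libraries 1 to 4. Knockdown libraries 1 to 3 lay above all controls and knockdown library 4 below them, with a log2 change of 0.29 (standard error 0.266, limma adjusted p = 0.799) that was 0.53 without knockdown library 4. Mylip (ENSRNOG00000017579), the LXR-driven ubiquitin ligase that removes lipoprotein receptors from the cell surface, measured 2161, 2432, 1256 and 529 in control and 1758, 1396, 603 and 1171 in knockdown libraries. It was lower in Sets 1 to 3 and higher in Set 4, at 222% of control, a log2 change of -0.25 and a standard error of 0.510. Soat1, which stores cholesterol as esters, measured 1352 ± 104 and 1348 ± 280 (SD, n = 4). Lpin1 (ENSRNOG00000004377), a phosphatidate phosphatase gene that SREBP also drives, had 29 to 80 reads a library and measured 49.1, 67.8, 69.0 and 28.0 in control and 60.4, 64.9, 36.7 and 64.3 in knockdown libraries, with overlapping groups and a log2 change of 0.13 (standard error 0.364).

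Related lipid genes were counted from lists drawn up for this description. Of 15 genes of fatty acid synthesis and its partners, 11 had a row, and 9 of these were above and 2 below 0 (median 0.12, range -0.69 to 0.36), with 0 called in the authors' deposited table, in limma or in DESeq2 with the block, and 0 at an unadjusted limma p under 0.05. Fasn, the fatty acid synthase, measured 4368 and Acly, which makes cytosolic acetyl-CoA, 5021 normalized counts on average in control cells, with log2 changes of 0.27 and 0.18. A difference between this list and the sterol enzymes was not tested.

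Of 10 genes of prenylation and of ubiquinone and dolichol synthesis, 7 were below and 3 above 0 (median -0.27), and the authors' deposited table calls 1 lower and 0 higher, against 5.22% and 4.09% of all genes in it. That gene, Pggt1b (ENSRNOG00000003541), the subunit of the enzyme that attaches geranylgeranyl groups to proteins, measured 379, 339, 382 and 343 normalized counts in the control and 284, 234, 260 and 201 in knockdown libraries 1 to 4. The groups did not overlap, and the authors' deposited table gives log2 -0.53 with an adjusted p of 0.0176. Its limma adjusted p was 0.370.

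Of 17 partners of SREBP and handlers of sterol, 9 were above and 8 below 0 (median 0.003), and the authors' deposited table calls 2 higher and 1 lower, against 4.09% and 5.22% of all genes in it. Osbp (ENSRNOG00000021057), which swaps cholesterol for a phosphoinositide between the ER and the Golgi, measured 2933, 2766, 2355 and 2274 normalized counts in the control and 3524, 3346, 3823 and 3338 in knockdown libraries, with no overlap (log2 0.42 and adjusted p = 0.0421 in the authors' deposited table, limma adjusted p = 0.384). Rnf139, a sterol-responsive ubiquitin ligase of the ER that binds INSIG, measured 720, 643, 611 and 427 in the control and 764, 966, 1444.7 and 710 in the knockdown libraries, higher in every Set with overlapping groups (log2 0.59 and adjusted p = 0.0419 in the authors' deposited table). Nfyc, a subunit of NF-Y, measured 994, 788, 750 and 658 in the control and 840, 648, 388 and 321 in the knockdown libraries, lower in every Set with overlapping groups (log2 -0.56 and adjusted p = 0.0461 in the authors' deposited table), while the subunit genes Nfya and Nfyb had log2 changes of 0.14 and -0.11. The limma adjusted p of Nfyc and of Rnf139 was 0.559 and 0.478.

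Markers of other cell types moved with the groups in part. Fibroblast markers, with 7 of 7 listed, summed to 1791 to 4733 CPM in control and 2155 to 8988 CPM in knockdown libraries, and were higher in the knockdown of every Set. The authors' deposited table calls 2 of them higher, the collagen genes Col1a1 and Col1a2, against 4.09% of all genes in it. In Sets 1 to 4 Col1a1 was at 236%, 222%, 274% and 248% of control, and Col1a2 at 204%, 197%, 229% and 146%. The groups of both overlapped across Sets. The limma adjusted p was 0.592 for Col1a1 and 0.546 for Col1a2, or 0.0578 and 0.0591 with Sets blocked. The sum of the fibroblast markers is mostly collagen except in control library 3, where Pdgfra was the highest of them at 9620 normalized counts. In limma 3 of the 7 lay below 0: Pdgfra and Thy1, at 57.0% and 84.0% of control and lower in 3 of 4 Sets, and Mkx, at -0.05. Macrophage markers had 6 of 12 listed and summed to 37.6 to 62.2 CPM in control and 34.7 to 50.0 CPM in knockdown libraries. The sum was lower in the knockdown of Sets 1 to 3 and higher in Set 4. Cd68, the lysosomal protein of macrophages, is called lower in the authors' deposited table (log2 -0.94), against 5.22% of all genes in it. Its groups overlapped, and its limma adjusted p was 0.691. Csf1r and Cd14 were also below 0 in limma but higher in the knockdown of Set 4, and only these 3 passed the filter. Endothelial markers, 2 of 5 listed, were at most 3.71 CPM, and adipocyte markers, 2 of 5 listed, at most 3.66 CPM. The part of these markers in the results above was not tested.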

How the data were processed

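RNA was sequenced in single reads of 50 cycles, per the labels. The submitters' processing notes name Novoalign 2.08.01, DESeq2 1.10.1 and the build rn5; no source used here gives the annotation, the counter or the use of strand, so reads of overlapping or antisense genes cannot be told apart. The deposited signal values are counts per gene scaled by the authors, as the word normalized in the file headers says: 100% of the values were, with 1 factor per library, whole reads within 0.001 reads, and these reads were recovered. The deposited log2 fold changes (knockdown over control) and the deposited adjusted p-values are the authors' own, per the file headers, with no p for 1362 genes.

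The main test was limma-trend (limma 3.58.1) on log2(normalized count + 1), a scale on which low genes change less, with group as the only term, 2-sided, Benjamini-Hochberg adjusted over 12383 genes kept by filterByExpr of edgeR 4.0.16. Standard errors are limma's moderated ones. Alternatives were the Set as a block, edgeR and DESeq2 1.42.0 on the recovered reads, other pseudocounts (0.5 and 5), no filter, TMM scaling and leaving out libraries (R 4.3.3). Limma and DESeq2, each with and without the block, and edgeR without it were tried on simulated counts. The other alternatives were not. The simulated counts held no Set effect, so they cannot show how the block acts in these libraries. Exact permutation tests were 2-sided, on log2(normalized count + 1), and shuffled all 8 libraries without regard to the Sets. Deviations of the control and knockdown library of the same Set from their group means correlated at 0.805, 0.749, 0.681 and 0.699 over genes in Sets 1 to 4, so the Set pairs the libraries; this rests on the data, not on the labels. Counting error limits genes with few reads.

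Named in full were Nfat5, members called by the authors, members whose groups do not overlap and 16 members fixed by name; other genes named with values are members of the lists. The members and lists were chosen with earlier results of these data known. Promoters are RefSeq's, GRCr8, the first window listed for a symbol. Promoter positions are on that build and gene values rest on rn5.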

Additional observations from a re-analysis of the deposited data

Results flagged for a closer look

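Dixon's criterion for a sample far from the others, applied to each group of 4 libraries for the 36 members and Nfat5, picked out 4 of 74 groups, and chance picks out about 1 in 20. They are Hmgcs1 in control library 4, at 1446.5 normalized counts, Abca1 in control library 2, at 1701, Msmo1 in knockdown library 4, the lowest of its group at 687, and Lpin1 in knockdown library 3, the lowest of its group at 36.7. The high control library of Hmgcs1 and the low knockdown library of Msmo1 belong to Set 4, where the medians of the early and late enzymes were lowest.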

How the results depend on the processing

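The pseudocounts of 0.5 and 5, no filter and TMM scaling changed the direction or the call of 0 of the results. Limma called 0 genes higher and 1 lower; the lower call went to 0 with the Set as a replicate block in limma or edgeR, with any 1 library left out (0 to 0), and without both libraries of any Set. DESeq2 called 68 higher and 95 lower genes without the block, and 518 and 656 with the Set as a block, where 1 member was higher and 3 were lower, against 0 and 0 in limma; the cause was not tested. The block changed no other call of a member. The median of the SREBP system ran from -0.10 to 0.12 with a library left out, and that of the early enzymes from -0.38 to -0.18 (-0.14 without both libraries of Set 4).

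Of the 20 genes named in full and followed through every setting, 9 turned sign, none of them called. Among the other enzymes, Mvd, Tm7sf2 and Fdft1 also turned above 0 with at least 1 library or Set left out. With a library left out, log2 fold changes ran from -0.27 to 0.13 for Hmgcs1, -0.10 to 0.12 for Dhcr7, -0.094 to 0.51 for Srebf1, -0.33 to 0.12 for Srebf2, -0.080 to 0.067 for Scap, -0.071 to 0.24 for Insig2, -0.71 to 0.057 for Mylip, -0.058 to 0.90 for Abcg1 and -0.15 to 0.32 for Lpin1. Dhcr7 was 0.0033 in DESeq2 without the block. Without both libraries of Set 3, Dhcr7 was 0.040, Scap 0.076 and Mylip 0.016; without those of Set 4, Hmgcs1 was 0.16, Dhcr7 0.069, Srebf2 0.031, Insig2 -0.033 and Lpin1 -0.22. Leaving out whole Sets was chosen after seeing the data. Genes with few reads, such as Tm7sf2 at 25 to 70 a library, are limited by counting error.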

Other observations

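The partner list held 3 enzymes that make or remove oxysterols, chosen for mention after their values were seen. Ch25h (ENSRNOG00000019141), which makes 25-hydroxycholesterol, measured 10.5, 29.2, 145 and 1016 normalized counts in the control and 8.28, 19.5, 46.4 and 32.2 in knockdown libraries 1 to 4. It was lower in all 4 Sets, and control library 4 carried most of its control mean. Cyp7b1 (ENSRNOG00000009730), which hydroxylates oxysterols on the way to bile acids, measured 1395, 1362, 1019 and 16583 in control and 1239, 931, 113 and 2570 in knockdown libraries. It too was lower in all 4 Sets with overlapping groups. For Ch25h and Cyp7b1, log2 fold changes were -1.86 and -1.64, with a limma adjusted p of 0.708 for both, and the authors' deposited table gives adjusted p-values of 0.0674 and 0.131. Cyp27a1, a mitochondrial sterol hydroxylase, did not share that direction: it measured 42.9, 46.5, 182 and 22.2 in control and 71.2, 35.7, 101 and 95.5 in knockdown libraries, higher in Sets 1 and 4 and lower in Sets 2 and 3, with a limma log2 fold change of 0.39. Me1, the malic enzyme that supplies NADPH for lipid synthesis, was the fatty acid list's lowest gene, at 1220 ± 314 normalized counts in control cells and 784 ± 315 in knockdown cells (SD, n = 4), and was lower in all 4 Sets (limma adjusted p = 0.534).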
